A study of Homo sapiens with 8 samples.

Results

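The Schlafen family was examined in 8 bulk RNA-seq libraries of the human acute myeloid leukemia lines Molm13 and THP1, both monocytic in type. Its 5 members here are the genes with the symbols SLFN5, SLFN11, SLFN12, SLFN12L and SLFN13, which were taken by symbol from the Molm13 gene table and by gene identifier from the THP1 table, by a rule that uses no measured value, out of 57722 genes that both tables list. In each line, 2 libraries came from cells with a control shRNA (shCtrl; genotype WT in the labels) and 2 from cells with an shRNA against PRMT9 (shPRMT9; labelled PRMT9 knockdown), an arginine methyltransferase, and doxycycline induction is given for all 4 groups, the controls included. The time of induction is not given in the sources used here, and the labels do not say whether the replicates were separate cultures or whether shPRMT9 numbers 1 and 2 are replicates or hairpins, so that the p-values measure only the spread between these libraries. The letters OCI, used for other leukemia lines, stand in the library names of the THP1 group, whose remaining labels give THP1. The 2 lines were counted in separate tables, so that line, table and any batch that goes with them cannot be told apart.

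Schlafen genes are interferon-inducible genes that lie in a cluster on human chromosome 17, and several of their proteins act on RNA. SLFN11 and SLFN13 cleave tRNA, SLFN12 is an RNase that becomes active when bound to the phosphodiesterase PDE3A, and SLFN5 has been described as a nuclear regulator of interferon-stimulated transcription and as an antiviral restriction factor. SLFN11 is also known from cancer cell lines, in which its level goes with killing by DNA-damaging drugs and in which it is recruited to stressed replication forks. In myeloid cells, type I interferon reaches such genes through the receptor, the kinases JAK1 and TYK2, and the ISGF3 complex, which holds STAT2 and IRF9.

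The libraries held 18720950 to 27356870 counts on genes. PRMT9 was lower in every shPRMT9 library, with 332 and 289 counts in the Molm13 controls against 41 and 56 after knockdown (log2 fold change −2.68, FDR 1.16e-21) and 317 and 352 against 60 and 68 in THP1 (log2 fold change −2.29, FDR 3.69e-14, both from edgeR's quasi-likelihood test). Of 11 myeloid genes used to check the lines, 10 were above a mean of 1 CPM (counts scaled to a common library total) in both Molm13 groups, 9 in THP1 shCtrl and 10 in THP1 shPRMT9, with CD14 at or below it in Molm13 and THP1 shCtrl and MEIS1 in both THP1 groups. Their summed level went from between 1801 and 1812 CPM to between 2539 and 2544 CPM in Molm13, and from between 2739 and 2789 to between 3970 and 4116 CPM in THP1. Of 7 B-cell genes only PAX5 exceeded 1 CPM, with sums of 42.6 to 42.8 and 39.7 to 40.9 CPM in Molm13 and of 4.29 to 4.78 and 12.6 to 14.3 CPM in THP1 (shCtrl, then shPRMT9). None of 6 T-cell genes exceeded 1 CPM. The part of these shifts in the results that follow was not tested.

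SLFN5 rose 4.97-fold in Molm13 and 4.07-fold in THP1 upon PRMT9 knockdown, the largest fold change of the tested members in both lines. SLFN12 rose 2.06-fold in THP1 and had no count in Molm13. SLFN11, by far the most abundant member, rose 1.22-fold and 1.31-fold. SLFN13 rose by 0.58 on the log2 scale in Molm13, barely past the FDR, and SLFN12L showed no change that passed a test. Differentially expressed genes (DEGs) are those with an FDR (Benjamini-Hochberg) below 0.05 in edgeR's quasi-likelihood test, a fold change beyond 1.5 in either direction, and more than 1 RPKM (CPM per kilobase of exon) in at least 1 library. Of the 5 members, 3 had enough counts to be tested in Molm13 and all 5 in THP1. In Molm13, 1 member was an upregulated DEG, where 11.4% of the 16446 genes tested were, and in THP1 2 members were, where 3.83% of 16294 genes were. By the FDR alone, 3 members were higher in each line, beside 33.4% of genes in Molm13 and 19% in THP1, and 0 were lower, beside 33.5% and 18.6%. Since bulk RNA was measured, a change in the share of cells that express a gene and a change in RNA per cell cannot be told apart.

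**Figure D1:**
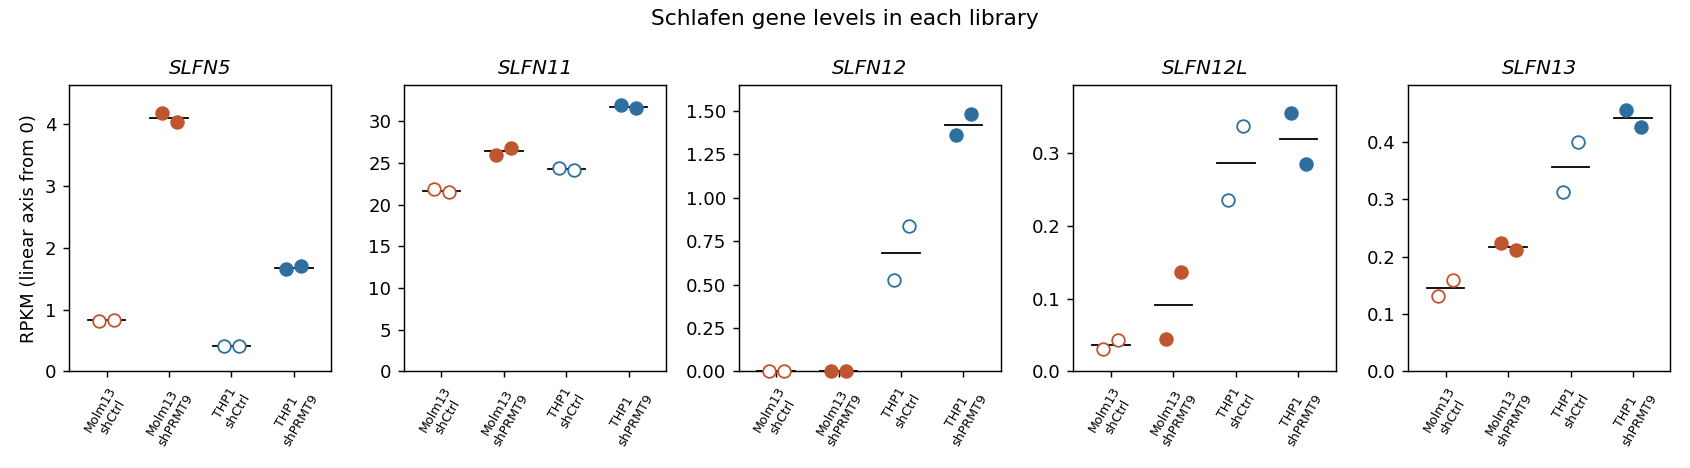
Level of each Schlafen gene in RPKM (linear axes from 0, a scale of its own for each gene) in the 8 libraries; open points are shCtrl, filled points shPRMT9, and the black line is the mean of 2 libraries. SLFN5 separates the groups widely in both lines, SLFN12 is at 0 in all Molm13 libraries, and the THP1 groups of SLFN12L overlap.

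SLFN5 (ENSG00000166750) lies on the plus strand of chromosome 17 (35243036 to 35273655 on GRCh38) and encodes a protein of 891 residues. The Molm13 controls held 180 and 173 counts of SLFN5 and the knockdown libraries 838 and 918, which scale to 8.82 ± 0.0197 and 43.9 ± 1.18 CPM (SD, n = 2 per group). The groups were far apart and the libraries within a group close together. In the controls, here and in THP1 below, the 2 libraries lay closer than counting error alone would typically give. The SDs of the controls therefore do not measure precision. On the log2 scale SLFN5 rose by 2.31 (standard error 0.08, FDR 3.41e-28, edgeR's quasi-likelihood test). The THP1 controls held 112 and 124 counts and the THP1 knockdown libraries 448 and 452, which scale to 4.41 ± 0.0627 and 18.0 ± 0.294 CPM (SD, n = 2 per group). All shPRMT9 libraries were again well above the controls, with a log2 fold change of 2.02 (standard error 0.10, FDR 3.42e-15, edgeR's quasi-likelihood test). Ordered by log2 fold change, SLFN5 stood at place 198 of 16446 genes in Molm13 and 137 of 16294 in THP1. SLFN5 belongs to the gene signature that the study drew from these libraries, whereas the other members do not, so its direction is not independent evidence.

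SLFN11 (ENSG00000172716; minus strand, 35350305 to 35373701) encodes 901 residues. It had 2674 and 2524 counts in the Molm13 controls and 2909 and 3424 after knockdown. After scaling to the library totals these were 130 ± 1.37 and 158 ± 3.79 CPM (SD, n = 2 per group), so that the groups did not overlap. The log2 fold change of 0.28 passed the FDR (standard error 0.03, FDR 4.87e-10, edgeR's quasi-likelihood test) but not the fold change limit of a DEG. In THP1, counts of 3737 and 4032 stood against 4812 and 4698, which scale to 145 ± 0.589 and 190 ± 1.31 CPM (SD, n = 2 per group). SLFN11 rose by 0.39 on the log2 scale (standard error 0.04, FDR 6.54e-10, edgeR's quasi-likelihood test), again below the fold change limit. Per length, the small fold of SLFN11 was the largest gain of the family. It gained 4.71 RPKM in Molm13 and 7.46 RPKM in THP1, compared with 3.28 and 1.27 RPKM for SLFN5 and 0.738 RPKM for SLFN12 in THP1.

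SLFN12 (ENSG00000172123; minus strand, 35411060 to 35433283) encodes 578 residues and lacks the longer C-terminal part that SLFN5, SLFN11 and SLFN13 have. No read was counted on SLFN12 in any of the 4 Molm13 libraries, a depth at which up to 3 counts, or 0.141 to 0.160 CPM by library, would still be allowed by counting error alone. The THP1 controls held 48 and 83 counts and the knockdown libraries 122 and 131, which scale to 2.43 ± 0.786 and 5.06 ± 0.305 CPM (SD, n = 2 per group). The control libraries differed more between themselves than the shPRMT9 libraries did, and the groups did not overlap. THP1 shCtrl replicate 1 was also the lower control for SLFN12L (29 against 45 counts) and SLFN13 (75 against 104). Without it, the log2 values of SLFN12, SLFN12L and SLFN13 were 0.76, −0.08 and 0.14. Without shCtrl replicate 2 they were 1.43, 0.44 and 0.49. SLFN12 rose by 1.05 on the log2 scale (standard error 0.18, FDR 3.87e-05, edgeR's quasi-likelihood test). With each THP1 library left out in turn, the value was between 0.76 and 1.43 and still passed the FDR.

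SLFN13 (ENSG00000154760; minus strand, 35435096 to 35448837) encodes 897 residues and was a low gene. The Molm13 controls held 25 and 29 counts and the knockdown libraries 39 and 42, which scale to 1.35 ± 0.182 and 2.03 ± 0.0787 CPM (SD, n = 2 per group). The log2 fold change of 0.58 had an FDR of 0.0491 from edgeR's quasi-likelihood test (standard error 0.26), and the FDR was above 0.05 in 8 of 10 alternative settings, with each library left out among them (FDR 0.0522 to 0.24). For THP1, 75 and 104 counts in the controls stood beside 107 and 99 after knockdown, which scale to 3.33 ± 0.575 and 4.11 ± 0.185 CPM (SD, n = 2 per group). The groups did not overlap in CPM, but the log2 value of 0.30 did not pass (standard error 0.17, FDR 0.175, edgeR's quasi-likelihood test; 95% interval −0.05 to 0.64).

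SLFN12L (ENSG00000205045; minus strand, 35464249 to 35537861) encodes 617 residues and is the least studied member. Its Molm13 counts, 3 and 4 in the controls and 4 and 14 after knockdown, were too few to be tested. A single shPRMT9 library carried most of these reads. The THP1 controls held 29 and 45 counts and the knockdown libraries 43 and 34, with overlapping groups (1.37 ± 0.344 and 1.54 ± 0.239 CPM; SD, n = 2 per group). Its log2 value was 0.15 (standard error 0.27, FDR 0.706, edgeR's quasi-likelihood test), and the 95% interval from −0.40 to 0.71 still holds changes past the fold change limit in the upward direction. SLFN12L is the only member whose span overlaps other annotated genes, 6 in all, 3 of them on the opposite strand, and the strand setting of the counting is not given in the sources used here.

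**Figure D2:**
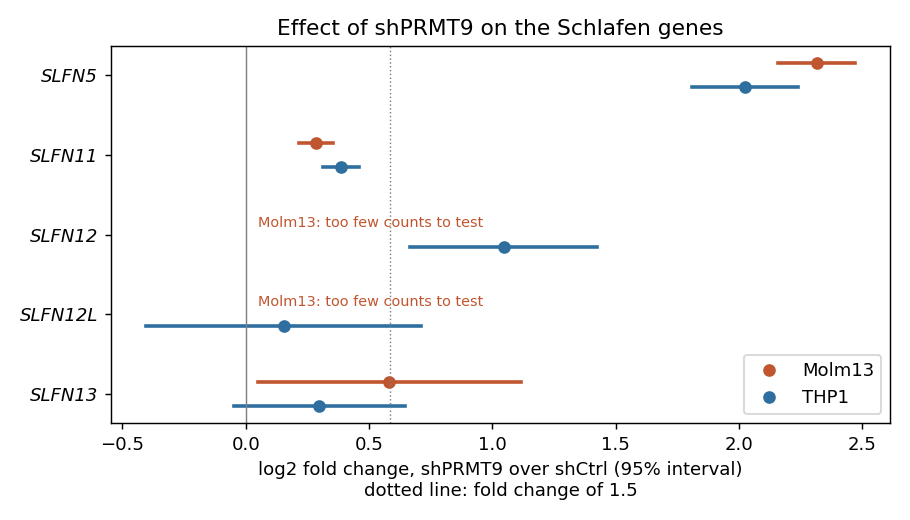
Log2 fold change of shPRMT9 over shCtrl with its 95% interval for each tested member in Molm13 and THP1; the dotted line marks a fold change of 1.5. The intervals of SLFN5 lie between 1.81 and 2.47 in both lines, those of SLFN11 below the dotted line, and those of SLFN12L and SLFN13 in THP1 cross 0.

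Compared per length, SLFN11 led in all 4 groups. In the Molm13 controls, SLFN11 stood at 21.7 RPKM, SLFN5 at 0.824, SLFN13 at 0.145 and SLFN12L at 0.0365 RPKM, with SLFN12 at 0, and no neighbours in this order overlapped. SLFN11 thus made up 95.6% of the summed RPKM of the family and SLFN5 3.63%. After knockdown the order was kept, at 26.4, 4.10, 0.217 and 0.0905 RPKM, but the share of SLFN5 was 13.3% and that of SLFN11 85.7%. SLFN12L had 3 and 4 counts in the Molm13 controls and 4 and 14 after knockdown, beside a floor of 3 counts for SLFN12. The order of SLFN12L and SLFN12 in Molm13 is therefore not settled. In the THP1 controls, SLFN11 stood at 24.3 RPKM, SLFN12 at 0.682, SLFN5 at 0.412, SLFN13 at 0.357 and SLFN12L at 0.286 RPKM, and only the lowest pair overlapped between libraries. After knockdown in THP1, SLFN5 (1.68 RPKM) stood above SLFN12 (1.42 RPKM), followed by SLFN13 (0.441 RPKM) and SLFN12L (0.319 RPKM), with no overlap between neighbours. The share of SLFN5 in THP1 went from 1.58% to 4.71%, and that of SLFN11 from 93.3% to 89.2%.

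The lines differed in the control level of the family. In a joint fit of all 8 libraries, SLFN5 was lower in THP1 shCtrl than in Molm13 shCtrl (log2 difference −0.99, FDR 1.1e-11, edgeR's quasi-likelihood test). SLFN11 was slightly higher in THP1 (0.17, FDR 1.95e-05), as were SLFN13 (1.31, FDR 2.54e-07) and SLFN12L (2.95, FDR 5.53e-08; from 3 and 4 against 29 and 45 counts). SLFN12, at 0 in Molm13, was at least 16.2-fold higher in THP1 shCtrl and at least 33.6-fold higher in THP1 shPRMT9, against a floor of 3 counts per library. Differences between the control groups were common, with 82.8% of 19288 genes past the FDR, so the count of members past it, 4 of 4 with SLFN12 set aside because its fitted value against libraries at 0 is no estimate, is read as no more than that background.

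The effect of shPRMT9 was not shown to differ between the lines for any of the 4 members that can be compared. Of all genes, 42.2% passed this test, and 4 members are too few to be set apart from that share. The difference of the log2 fold changes, THP1 minus Molm13, was −0.28 for SLFN5 (95% interval −0.57 to 0.01, FDR 0.126, edgeR's quasi-likelihood test). For SLFN11 it was 0.12 (interval 0.02 to 0.21, FDR 0.0525), for SLFN13 −0.27 (interval −0.90 to 0.36, FDR 0.548) and for SLFN12L −1.17 (interval −2.58 to 0.25, FDR 0.195). The intervals are unadjusted, and those of SLFN13 and SLFN12L are wide enough to hold large differences in either or in the downward direction. With each library left out in turn, the difference was between −1.75 (without Molm13 shPRMT9 replicate 1) and −0.15 (without Molm13 shPRMT9 replicate 2) for SLFN12L, between −0.47 (without THP1 shCtrl replicate 1) and −0.11 (without THP1 shCtrl replicate 2) for SLFN13, and between 0.055 and 0.10 for SLFN11, below its value from all libraries. For SLFN12, with no counts in Molm13, the effects cannot be compared.

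The coding sequences of the members are similar enough to bear on the counts. In the longest coding sequences of GENCODE 29, SLFN11 and SLFN13 were identical at 87.8% of aligned bases and SLFN12 and SLFN12L at 87.2%, whereas the other pairs ranged from 62.5% to 71.5%. SLFN11 and SLFN13 shared an unbroken identical run of 516 coding bases, from base 1438 to 1953 of both. Its first 120 bases are shown because a read within this run fits both genes:
SLFN11 and SLFN13: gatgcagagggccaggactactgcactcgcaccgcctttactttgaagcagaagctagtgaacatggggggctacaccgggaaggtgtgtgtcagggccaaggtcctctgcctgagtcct
SLFN12 and SLFN12L shared a run of at most 79 bases, from base 1435 of SLFN12 and 1579 of SLFN12L:
SLFN12 and SLFN12L: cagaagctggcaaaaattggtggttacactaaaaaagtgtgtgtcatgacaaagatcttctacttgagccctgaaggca
Of all 50-base windows of the transcripts of SLFN11, 9.69% occurred in another member, as did 6.5% of those of SLFN13, 1.75% of those of SLFN12L, 1.32% of those of SLFN12 and 0% of those of SLFN5. With all other genes included, the share was 8.46% for SLFN12L, mostly through the antisense gene AC015911.5 that it overlaps, and 7.03% for SLFN13 and 0.196% for SLFN5. The counts of SLFN13 (25 to 107 by library) stood beside 2524 to 4812 counts on SLFN11, which rose in the same libraries. The part of shared reads in the values of SLFN13 was not tested, and the values of SLFN13 and SLFN12L are uncertain, whereas SLFN5 shares no such window with the family.

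Promoter windows of 300 bases (RefSeq, GRCh38.p14; 250 bases before to 50 after the start) were matched for 3 of the 5 members, SLFN11, SLFN12 and SLFN12L, and not for SLFN5 and SLFN13. They are shown because interferon acts through short promoter motifs, and because the shown members moved differently, up in both lines, up in THP1, and without a change that passed a test. Each runs 5′ to 3′ on the minus strand, and capitals mark matches to the interferon-stimulated response element core GAAANNGAAA, which ISGF3 binds in such genes, or to the gamma-activated site TTCNNNGAA, a motif of interferon-responsive promoters. Both strands were searched.
SLFN11, chr17:35373572-35373871: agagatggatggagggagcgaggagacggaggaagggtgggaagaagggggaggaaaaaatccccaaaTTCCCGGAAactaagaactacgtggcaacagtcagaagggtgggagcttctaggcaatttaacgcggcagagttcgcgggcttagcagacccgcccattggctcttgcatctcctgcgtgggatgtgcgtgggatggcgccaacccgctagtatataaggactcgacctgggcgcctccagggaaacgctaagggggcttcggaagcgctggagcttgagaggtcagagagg
SLFN12, chr17:35433125-35433424: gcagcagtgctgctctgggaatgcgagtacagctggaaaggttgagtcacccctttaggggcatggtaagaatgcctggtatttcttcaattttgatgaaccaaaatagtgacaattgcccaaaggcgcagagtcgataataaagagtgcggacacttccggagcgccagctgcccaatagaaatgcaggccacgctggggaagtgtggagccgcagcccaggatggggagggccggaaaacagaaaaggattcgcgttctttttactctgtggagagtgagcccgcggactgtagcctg
SLFN12L, chr17:35537629-35537928: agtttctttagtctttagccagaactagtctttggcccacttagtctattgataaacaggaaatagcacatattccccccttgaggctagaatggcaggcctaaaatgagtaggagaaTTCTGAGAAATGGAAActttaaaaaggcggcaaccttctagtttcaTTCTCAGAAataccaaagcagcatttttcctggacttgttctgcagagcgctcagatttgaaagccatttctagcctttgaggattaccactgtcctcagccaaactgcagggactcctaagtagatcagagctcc
SLFN11 held 1 gamma-activated site match, TTCCCGGAA, 182 bases before the start. SLFN12L held 2, TTCTGAGAA and TTCTCAGAA, starting 132 and 86 bases before it, and 1 match to the response element core, GAAATGGAAA, which overlaps the first of these. The SLFN12 window held neither. Over 35116 promoter windows of the same length, 7.66% held the gamma-activated site and 3.57% the response element core. A match is a description of letters, and no match concerns this window alone.

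Around the cluster, most genes did not follow SLFN5. Within 500 kb of the members, 16 other genes were tested in Molm13, of which 3 were DEGs upward and 1 downward, with a median log2 fold change of 0.00 and a range from −0.68 to 1.13. In THP1, 21 were tested, with 2 DEGs upward and 1 downward, a median of 0.09 and a range from −0.85 to 1.52. Of all genes tested, 11.4% were DEGs upward and 11.3% downward in Molm13, and 3.83% and 2.39% in THP1. CCT6B, a chaperonin subunit, was the highest of the Molm13 neighbours (log2 fold change 1.13, FDR 3.18e-09, edgeR's quasi-likelihood test), and was at 0.38 in THP1 (FDR 0.139). CCL5, a chemokine gene 334 kb above the cluster, rose in both lines (0.77, FDR 5.91e-14, and 1.30, FDR 1.2e-14). RP11-799D4.4, an antisense gene on the opposite strand from SLFN5 and 73 bases from it, had 10 and 10 counts in Molm13 shCtrl against 15 and 17 in shPRMT9 (log2 value 0.67, FDR 0.149) and 14 and 11 against 26 and 27 in THP1 (1.17, FDR 0.0139), where it passed the FDR but not the RPKM minimum. RP11-686D22.7, a transcribed pseudogene on the strand of SLFN12 and 832 bases beyond it, had 0, 0, 0 and 1 counts in the Molm13 libraries and 3 and 11 against 21 and 17 counts in THP1 (log2 fold change 1.52, FDR 0.0151). RP11-686D22.8, 1292 bases from SLFN12, was at 1.18 in THP1 (9 and 4 against 18 and 10 counts, FDR 0.0837) and had no count in Molm13. The other tested transcripts between the members did not rise. RP11-1094M14.7, between SLFN13 and SLFN12L, fell by 0.47 on the log2 scale in Molm13 (FDR 4.3e-07, not a DEG), RP11-686D22.6, between SLFN11 and SLFN12, was at −0.30 in Molm13 (FDR 0.422), and E2F3P1, within SLFN12L, was at 0.15 in THP1 (FDR 0.828). On the far side, the nearest tested gene was RP11-1094M14.11, 30.3 kb above the members, at −0.55 in Molm13 (FDR 0.0486) and 0.09 in THP1 (FDR 0.619). SLFN14, the remaining Schlafen gene of the cluster, had 1 count in 1 library of each line. Elsewhere in the genome, SLFNL1, a Schlafen-like gene, had 6 to 16 counts in Molm13 and 23 to 28 in THP1 and passed no test (FDR 0.247 and 0.659), and its antisense gene SLFNL1-AS1 was at −0.71 in Molm13 (FDR 0.0213, 25 to 49 counts, not a DEG) and 0.18 in THP1 (FDR 0.136, 288 to 332 counts).

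**Figure D3:**
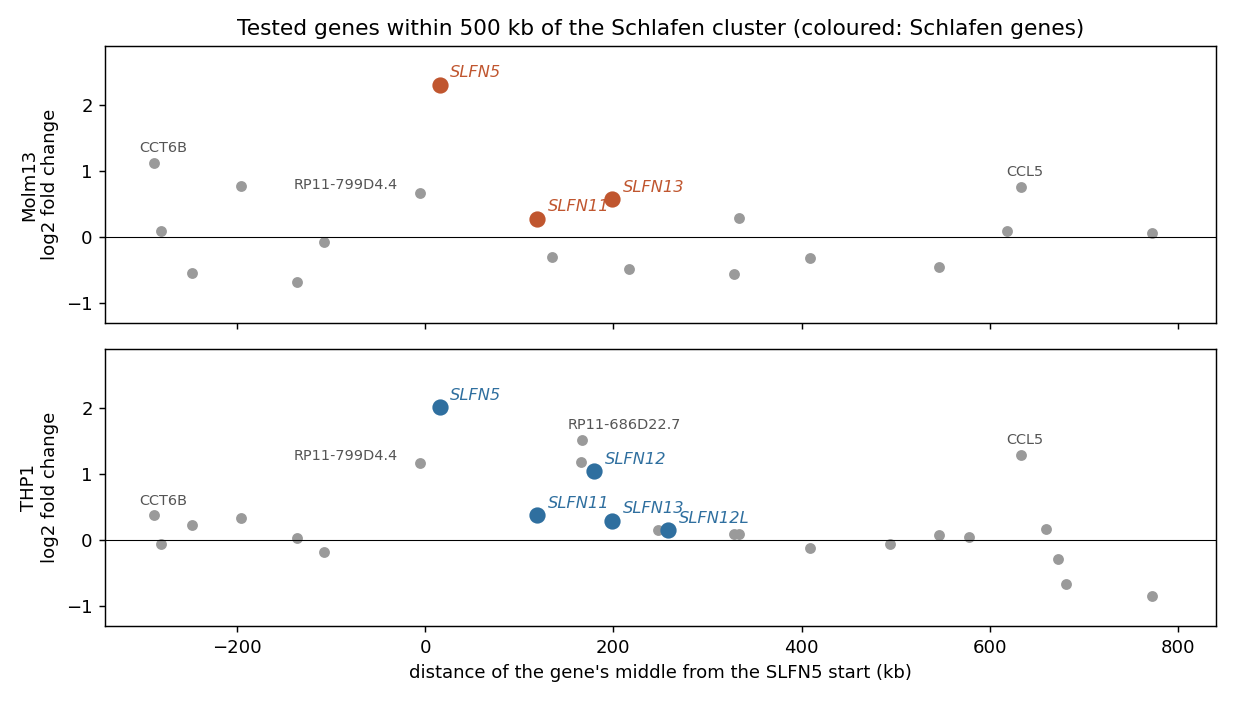
Log2 fold change of shPRMT9 over shCtrl for every tested gene within 500 kb of the cluster, against the distance of the gene's middle from the SLFN5 start in kb; coloured points are Schlafen genes and grey points other genes. SLFN5 is the highest point in both lines, at 2.31 and 2.02.

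To set the members beside their pathway, 4 gene lists were described by counts and medians, beside a median of 0.00 for all genes tested in each line. Of all genes tested, 11.4% were DEGs upward in Molm13 and 3.83% in THP1, and 11.3% and 2.39% were DEGs downward. Of 12 genes of interferon signalling, 6 were DEGs upward in Molm13 and 5 in THP1, with 0 downward (median log2 fold changes 0.59 and 0.43). STAT2 rose by 1.65 in Molm13 and 1.26 in THP1 on the log2 scale, and IRF9, its DNA-binding partner in ISGF3, by 1.91 and 0.67. IRF7, which amplifies interferon transcription, rose by 1.95 and 1.61. USP18, which restrains the receptor, rose by 0.77 and 3.01, and here the lines differed (FDR 1.37e-17 for the difference, edgeR's quasi-likelihood test). Of 16 antiviral effectors, 14 were DEGs upward in Molm13 and all 16 in THP1, with medians of 3.11 and 2.61, above SLFN5 in both lines. Part of this list is in the gene signature that the study drew from these libraries. STAT2 and IRF7 of the signalling list also passed that signature's limit, a fold change above 2 in both lines. The direction of neither list is therefore independent evidence. OAS2, a sensor of double-stranded RNA, rose by 4.11 and 2.62, IFIT1, which binds foreign mRNA ends, by 4.04 and 3.28, IFI44 by 4.06 and 3.77, and IFI44L by 5.81 and 4.61.

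A list of other host genes that cleave RNA or act in its decay had lower medians than the 2 lists above. Of this list, 11 genes were tested in Molm13, with 1 DEG upward, and 10 in THP1, with 2 upward, with medians of 0.18 and 0.13. Upward DEGs made up 11.4% of all genes tested in Molm13 and 3.83% in THP1. By the FDR alone, 5 genes of the list were higher and 3 lower in Molm13, and 5 higher and 0 lower in THP1. The shares over all genes were 33.4% higher and 33.5% lower in Molm13, and 19% and 18.6% in THP1. ZC3H12A, which degrades inflammatory mRNAs, rose by 0.54 and 1.75, and ISG20, an interferon-induced exonuclease, was at 0.44 in Molm13 (FDR 0.313) and rose by 2.13 in THP1. KHNYN, a partner of the antiviral protein ZAP, rose by 0.51 in Molm13 and was at −0.07 in THP1 (FDR 0.214). The difference between the lines passed the FDR for ZC3H12A (2.15e-10), ISG20 (0.000703) and KHNYN (4.79e-13, edgeR's quasi-likelihood test).

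The last list held genes linked to SLFN12, or to SLFN11 through stressed replication forks. A place on it does not mean that a product works directly with SLFN11. Of its 14 genes, 4 were DEGs downward in Molm13, where 11.3% of all genes were, and 0 of 13 tested were in THP1, where 2.39% were. By the FDR alone, 10 of 14 were lower and 2 higher in Molm13, and 2 of 13 were lower and 2 higher in THP1, beside 33.5% of all genes lower in Molm13 and 18.6% in THP1. These 4 were CHEK1 and ATR, the kinases of the replication checkpoint (log2 fold changes −1.10 and −1.05), MCM3, a subunit of the replicative helicase (−1.28), and DHX9, an RNA and DNA helicase (−0.74). In THP1, CHEK1 was also lower (−0.31, FDR 4.52e-05) and ATR was higher (0.28, FDR 6.28e-06), neither of them a DEG. MCM3 was at −0.03 (FDR 0.474) and DHX9 at −0.07 (FDR 0.0589, all from edgeR's quasi-likelihood test). The difference between the lines passed the FDR for each of these 4 genes (FDR 1.17e-46 to 8.61e-16, edgeR's quasi-likelihood test). SLFN11 itself thus rose slightly in both lines, while these genes fell in Molm13.

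**Figure D4:**
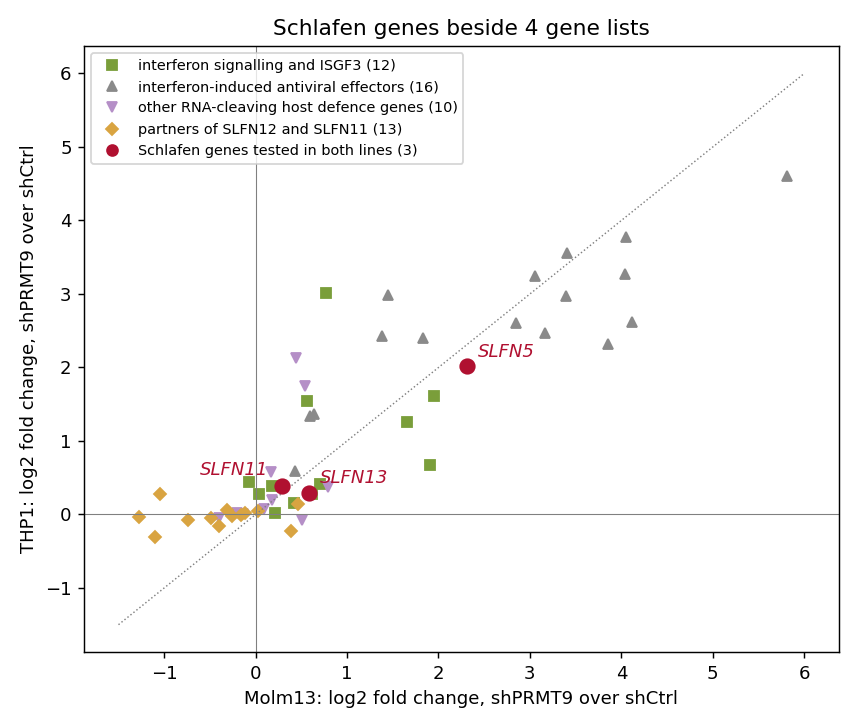
Log2 fold change of shPRMT9 over shCtrl in Molm13 (x axis) and THP1 (y axis) for the genes of the 4 lists that were tested in both lines and for the 3 Schlafen genes tested in both; the dotted line marks equal values. SLFN5 lies among the antiviral effectors at 2.31 and 2.02, and SLFN11 and SLFN13 near the origin.

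Genes with a pattern like that of a member were ranked by Pearson's r of log2 CPM over the 8 libraries and 19283 genes, as a description, since these points form 4 groups of 2 and mostly follow the line and the knockdown. For SLFN5, the most alike were POU2F2 (r = 0.995), FAM129B (0.995) and IL7R (0.994). For SLFN11 they were NPC1 (0.994), PLBD2 (0.994) and C19orf66 (0.990). For SLFN12 they were OSBPL10, IDO2 and HAPLN3 (all at or above 0.999), which like SLFN12 were too low in Molm13 to be tested. For SLFN12L they were LIPH (0.988), STAP2 (0.985) and ABHD6 (0.984), and for SLFN13 RP11-274B21.3 (0.994), STARD5 (0.990) and NRAS (0.990). No gene was among the 3 most alike of more than 1 member.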

How the data were processed

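Poly(A) RNA-seq libraries of Molm13 and THP1 cells were analysed, 8 in number, with 2 in each of 4 groups. Per the submitters' processing notes, TopHat2 2.0.8, HTSeq 0.11.2, edgeR 3.30.3 and hg38 were used. The authors deposited raw counts per gene as whole numbers, in 1 table per line, and the Molm13 table also holds coordinates and exon lengths. The annotation, the strand setting and the treatment of reads that fit several genes are not given in the sources used here.

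Replicate libraries differed by more than sampling noise (chi-square per gene 1.35 to 2.17). From the counts on, values were computed in R 4.3.3 with edgeR 4.0.16. Each line was fitted alone (TMM, filterByExpr, quasi-likelihood test, Benjamini-Hochberg adjustment over all genes tested, no replicate block), as shPRMT9 against shCtrl. A joint fit of all 8 libraries gave the differences between the lines. DEG limits followed the study's methods, and their upper fold limit was taken to mean above 1.5. Each standard error is |log2 fold change|/√F. RPKM used the Molm13 exon lengths for both lines. Counting floors and intervals cover counting error or the spread between libraries only.

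The members and lists were proposed with earlier results of these data known, although the rule that finds the members uses symbols only. The members, PRMT9, in each list the 4 genes with the largest change in Molm13 among those tested in both lines, the other SLFN symbols, the nearest tested neighbours and the 3 most alike genes are named by rule. CCT6B, CCL5 and the transcripts between the members fall outside it and were chosen after their values were seen. A list gene that would be named by this rule is left out here. The tests were tried on simulated data, with a fixed spread between libraries and changes in well-counted genes only. That trial does not cover genes as low as SLFN12L, or SLFN13 in Molm13. Alternatives were other normalizations, no filter, DESeq2 1.42.0, the FDR alone, a replicate block, 1 fit of all libraries and leaving out each library.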

Additional observations from a re-analysis of the deposited data

Results flagged for a closer look

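For no Schlafen gene was the effect of shPRMT9 shown to differ between the lines. Of the 26 other genes whose log2 fold changes or counts are given by line above and that the joint fit held, 18 had a difference past an FDR of 0.05 in edgeR's quasi-likelihood test, which 42.2% of all genes passed. Most of these genes were named for a large change in Molm13 or after their values were seen, which favours a difference between the lines, so their count is not comparable with that of the members. Values are the log2 fold change in THP1 minus that in Molm13.

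Among the interferon signalling genes, the difference was −0.38 for STAT2, −1.22 for IRF9, −0.33 for IRF7 and 2.25 for USP18. Among the antiviral effectors, it was −0.75 for IFIT1, −1.48 for OAS2 and −1.20 for IFI44L. Among the RNA-cleaving genes, it was −0.57 for KHNYN, 1.22 for ZC3H12A and 1.71 for ISG20. Among the genes linked to SLFN12 and SLFN11, it was 0.80 for CHEK1, 1.34 for ATR, 1.26 for MCM3 and 0.68 for DHX9. Near the cluster, it was −0.74 for CCT6B, 0.66 for RP11-1094M14.11 (FDR 0.0493) and 0.54 for CCL5, and it was 0.90 for SLFNL1-AS1. The line cannot be told apart from the table and any batch that goes with it.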

How the results depend on the processing

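SLFN5 and SLFN11 kept their direction and an FDR below 0.05 in both lines, and SLFN12 in THP1, under all 10 alternatives (SLFN5 2.30 to 2.35 and 2.00 to 2.04, SLFN11 0.27 to 0.32 and 0.36 to 0.39, SLFN12 0.76 to 1.43 on the log2 scale). By the FDR alone, 3 members rather than 1 were called in Molm13. SLFN13 in Molm13 no longer had an FDR below 0.05 in 8 of 10 alternatives (0.44 to 0.73, FDR up to 0.278). SLFN12L in THP1 turned direction without shCtrl replicate 1 or without shPRMT9 replicate 1, with a range of −0.076 to 0.44 over the left-out libraries, and passed no test. SLFN12L in Molm13 was tested in 5 alternatives only (1.11 to 1.89). The highest value came without shPRMT9 replicate 1 (4 counts), which left replicate 2 (14 counts) alone against controls of 3 and 4 counts. With all its libraries kept, SLFN12L in Molm13 did not pass (FDR 0.102 without the filter, 0.0752 in 1 fit of all libraries, edgeR's quasi-likelihood test). Where leaving out a library left 1 in its group, that library is assumed to vary like the others.

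With the replicate number as a block, 1 member remained a DEG in Molm13 and 2 in THP1, and 0 differed between the lines. Of the calls on members, the replicate block changed that of SLFN13 in Molm13 alone (0.58, FDR 0.0634). Same-numbered libraries did not deviate together (correlations −0.07 in Molm13 and −0.01 in THP1). This cannot settle whether same-numbered libraries were prepared together. The difference between the lines passed the FDR for 0 members, and the control difference for 4, in every alternative run. Low counts limit SLFN12L, SLFN13 and, in Molm13, SLFN12.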
